A study of Mus musculus with 4 samples.

Results

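The supply of active vitamin A, glucocorticoid and thyroid hormone to a cell depends on carriers and enzymes, and 4 such genes (Aldh1a3, Rbp4, Hsd11b1 and Dio2) were followed as 4 of the 3891 gene rows in a table of stromal cells from the mouse small intestine. They were chosen by their measured levels over the fibroblast groups in these same cells, so their levels, shares and folds over these groups are given as a description, with no test. The cells came from male wild type C57Bl/6 mice, 8 weeks old and untreated, and were sorted after Liberase digestion as live cells that lacked CD45, EpCAM and CD31 and carried gp38. Of the 4 samples, 2 were droplet libraries (10X 1 with 2547 cells and 10X 2 with 14344 cells) and 2 were Smartseq2 plates, and how many mice went into each is not given in the sources used here. The spread between the 2 libraries may therefore be technical, and every library is given on its own.

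Retinoid, glucocorticoid and thyroid signals share a design in which a circulating or stored precursor is turned into an active ligand close to the cells that respond. ALDH1A3 is a retinaldehyde dehydrogenase that makes retinoic acid, the ligand of the retinoic acid receptors, and RBP4 is the secreted protein that carries retinol in blood and between cells. HSD11B1 is an enzyme of the endoplasmic reticulum that regenerates active corticosterone from its inactive 11-keto form, and DIO2 is the selenoenzyme that removes an outer ring iodine from thyroxine to give the active hormone T3. In the intestine these ligands are known to act on epithelial renewal, on the imprinting of gut immune cells and on inflammation.

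All 4 genes lie on the minus strand and are protein coding in the GENCODE annotation of GRCm38. Aldh1a3 spans positions 66390890 to 66427517 of chromosome 7, with 13 exons in its principal transcript. Rbp4 spans positions 38116629 to 38125281 of chromosome 19 with 6 exons. Hsd11b1 spans positions 193221634 to 193264075 of chromosome 1 with 6 exons, and Dio2 spans positions 90724552 to 90738438 of chromosome 12 with only 2 exons. RefSeq promoter sequences of GRCm38.p6, running from 250 bases before to 50 bases after a start site, were matched for 3 of the 4 genes, and Aldh1a3 was not among them. The windows are shown because 2 of these genes were highest in the same group of cells and the third was lowest there. Each is read 5′ to 3′ on the minus strand, and the capitals mark every match to the letters searched, namely TGACGTCA (the cyclic AMP response element), TATAAA (the TATA box), AGGTCA (the half-site of many nuclear receptors), AGAACA (the half-site of the glucocorticoid receptor), AACAAT (the motif of SOX factors) and TAAACA (the motif of forkhead factors), on both strands.
Rbp4 (chr19:38124762-38125061): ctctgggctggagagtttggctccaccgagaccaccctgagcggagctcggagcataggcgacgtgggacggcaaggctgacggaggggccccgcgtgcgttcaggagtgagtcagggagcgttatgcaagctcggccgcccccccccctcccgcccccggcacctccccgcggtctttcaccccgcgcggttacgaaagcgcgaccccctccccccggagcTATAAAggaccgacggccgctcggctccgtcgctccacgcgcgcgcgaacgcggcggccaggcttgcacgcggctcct
Dio2 (chr12:90738989-90739288): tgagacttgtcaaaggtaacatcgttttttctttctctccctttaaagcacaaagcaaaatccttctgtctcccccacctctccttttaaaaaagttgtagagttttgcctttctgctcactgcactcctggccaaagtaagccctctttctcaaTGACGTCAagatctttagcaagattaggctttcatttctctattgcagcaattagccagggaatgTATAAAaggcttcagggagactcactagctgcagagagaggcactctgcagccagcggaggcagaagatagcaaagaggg
Hsd11b1 (chr1:193242311-193242610): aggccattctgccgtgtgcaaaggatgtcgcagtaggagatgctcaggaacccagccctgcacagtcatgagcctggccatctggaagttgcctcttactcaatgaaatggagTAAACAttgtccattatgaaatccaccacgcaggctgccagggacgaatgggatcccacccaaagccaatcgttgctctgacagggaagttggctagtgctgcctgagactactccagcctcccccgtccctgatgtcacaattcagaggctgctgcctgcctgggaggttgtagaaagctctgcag
The Rbp4 window held a TATAAA whose first base was at -28 from the start site. The Dio2 window held the 8 bases TGACGTCA at -95 and a TATAAA at -30. The Hsd11b1 window held a TAAACA at -137, and a second annotated start site of Rbp4 held the same letters at -240. Of 32851 promoters of the same length, 1.79% held TGACGTCA, 13.6% held TATAAA and 13.4% held TAAACA. The nuclear receptor, glucocorticoid receptor and SOX letters, held by 16.3%, 19% and 10.7% of the promoters, were not in these windows, which says nothing of the factors themselves. No match overlapped another one. The RefSeq start of Dio2 lies upstream of the GENCODE gene, and that of Hsd11b1 lies inside the GENCODE span of the gene.

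Cells of the droplet libraries were placed in 5 groups by which marker genes had a value above 0. A Sox6 value put a cell among the subepithelial cells, with 285 cells in 10X 1 and 2699 in 10X 2. Of the rest, cells with 3 or more of Inmt, Penk, Vit and Scara5 numbered 331 and 1107, and cells with 3 or more of Chodl, Dner, Thbs2 and Ptn formed the Fibin type with 100 and 697. A Grem1 value then marked crypt cells (1021 and 4837) and an Lpl value marked villus cells (611 and 3699), which left 199 and 1305 cells in no group. A cell that met several conditions went to the first, and 145 cells met more than 1 of the first 3.

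The group names were checked against markers that the assignment did not use. Bmp5, a BMP ligand of telocytes, was detected in 96.8% and 91.3% of the subepithelial cells of 10X 1 and 10X 2, and Bmp7 in 87.7% and 78.8%. The 8 subepithelial check genes, Bmp5 and Bmp7 among them, summed to 52.9 and 54.1 UMIs per 10,000 in these cells. They summed to 36.6 and 39.8 in the Fibin type and to at most 14.2 in any other group. Fibin stood at 29.3 and 19.3 UMIs per 10,000 in the Fibin type and at no more than 0.986 in the other 4 groups, but the summed level of the 3 Fibin type check genes was nearly as high in subepithelial cells (37.0 and 33.5) as in the Fibin type (44.3 and 36.6). The 5 crypt check genes, C3 among them, summed to 42.4 and 46.1 in crypt cells and to more, 59.4 and 55.6, in Scara5/Penk cells, so they do not set these groups apart. The 6 villus check genes summed to 129.8 and 157.9 in villus cells, 82.5 and 99.8 in crypt cells and at most 75 in any other group. The cells with Penk and Scara5 had been named mesothelial-like, but the mesothelial marker Msln was at 0 in both libraries and Upk3b was seen in 0% and 0.361% of them, so they are called Scara5/Penk cells here. Ptprc, Epcam and Pecam1, the genes of the antigens used to deplete immune, epithelial and endothelial cells, were detected in at most 0.372%, 0.741% and 4.70% of any group. Myh11, a smooth muscle gene, was detected in 82.8% and 74.6% of subepithelial cells, whereas Cnn1 was seen in 0.351% and 0.704%. Cells carried a median of 8757 UMIs (unique molecular identifiers, each 1 captured transcript) in 10X 1 and 6874 in 10X 2, and 7 cell barcodes were shared by the libraries. Subepithelial cells were the deepest group, with medians of 11064 and 8299 UMIs against 7939 and 5982 in villus cells.

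Levels are given as UMIs of a gene per 10,000 UMIs of the cell, averaged over the cells of a group in 1 library, and the error of a mean is the SD over the 2 libraries. This scale does not depend on a transcript's length in 3′ counting, but capture can differ between genes, so the 4 genes are compared over groups and not with each other. In brief, Rbp4 and Dio2 were highest in the subepithelial cells, Hsd11b1 was lowest there and high in villus, crypt and Scara5/Penk cells, and Aldh1a3 was highest in the Fibin type and in villus cells.

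Rbp4, the retinol carrier, stood at 2.95 UMIs per 10,000 in the subepithelial cells of 10X 1 and 2.71 in those of 10X 2, a mean of 2.83 ± 0.176 (SD, n = 2). The next group, the Scara5/Penk cells, stood at 0.337 and 0.467. Crypt cells held 0.139 and 0.243. Villus cells (0.0859 and 0.284) overlapped with crypt cells, and the Fibin type was the lowest at 0.0346 and 0.0798. The subepithelial level was thus 8.77-fold and 5.79-fold that of the Scara5/Penk cells and 21.2-fold and 11.2-fold that of crypt cells, and its 2 libraries lay above every library of every other group. On the natural log scale of the deposited values, the subepithelial cells exceeded the mean of the other 4 groups by 0.676 and 0.667. Of all Rbp4 UMIs, 72.3% and 74.6% were in subepithelial cells, which made up 11.2% and 18.8% of the cells.

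Dio2, the thyroxine activating enzyme, was a rare transcript with the same leading group. Subepithelial cells held 0.314 and 0.200 UMIs per 10,000, a mean of 0.257 ± 0.0806 (SD, n = 2). The Fibin type (0.0118 and 0.0276) and the Scara5/Penk cells (0.0112 and 0.0228) overlapped far below. Villus cells held 0.00475 and 0.0103, and crypt cells 0 and 0.00337. No Dio2 UMI was found in the 1021 crypt cells of 10X 1, which limits the share of cells with a captured UMI to 0.294% and does not limit the share that expresses the gene. The subepithelial level was 28.1-fold and 8.77-fold that of the Scara5/Penk cells, from only 4 and 22 Dio2 UMIs in the latter. Subepithelial cells held 91.8% and 86.2% of all Dio2 UMIs in the 2 libraries.

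Hsd11b1, which regenerates corticosterone, had the reverse pattern. Villus cells held 4.36 and 6.48 UMIs per 10,000, crypt cells 3.60 and 5.22, and Scara5/Penk cells 3.22 and 4.17. This order was the same in both libraries, but the library ranges of these 3 neighbours overlapped. The Fibin type held 1.22 and 2.65, and subepithelial cells only 0.191 and 0.979. The villus level was 22.9-fold the subepithelial level in 10X 1 and 6.62-fold in 10X 2, and the Fibin type was 6.42-fold and 2.70-fold above it. On the deposited scale the subepithelial cells were lower than the mean of the other 4 groups, with differences of -1.03 and -1.005. Crypt cells held 45.3% and 41.0% of all Hsd11b1 UMIs, villus cells 31.7% and 34.3%, and subepithelial cells 0.725% and 5.31%.

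Aldh1a3, the retinoic acid forming enzyme, was spread over more groups. The Fibin type held 6.78 and 5.79 UMIs per 10,000 and villus cells 3.37 and 5.92, so that the Fibin type was 2.01-fold above villus cells in 10X 1 and level with them in 10X 2 (0.979-fold). Subepithelial cells (0.982 and 2.63) and crypt cells (1.10 and 2.104) overlapped, and Scara5/Penk cells were lowest at 0.343 and 0.717. Villus cells exceeded crypt cells 3.06-fold in 10X 1 and 2.81-fold in 10X 2. Aldh1a3 also differed between the libraries within a group, being 1.76-fold higher in 10X 2 in villus cells, 2.68-fold higher in subepithelial cells and 0.854-fold as high in the Fibin type. Library differences of this size cannot be told apart from differences between the mice or the captures.

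**Figure D1:**
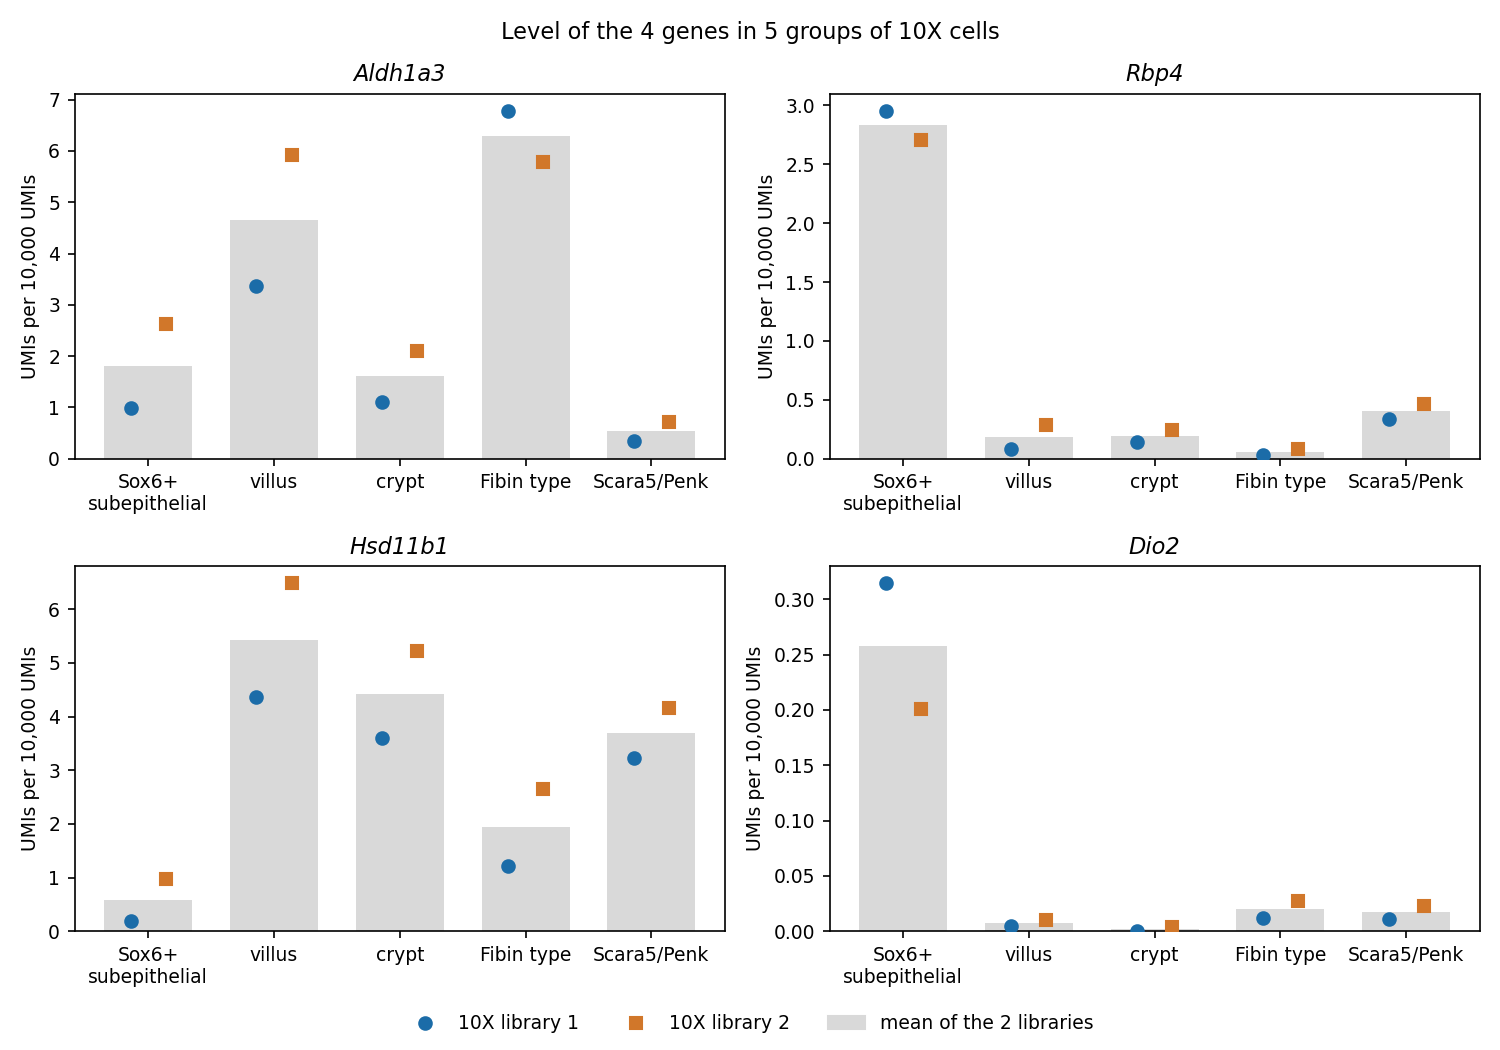
Level of each gene in UMIs per 10,000 UMIs (vertical axis, each panel with its own linear scale from 0) in the 5 groups of cells, with circles for 10X 1, squares for 10X 2 and bars for their mean. Rbp4 and Dio2 peaked in the Sox6+ subepithelial cells (means of 2.83 and 0.257), where Hsd11b1 had its lowest mean (0.585).

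The share of cells with at least 1 UMI was read against immune cells that escaped the sort, since free RNA in droplets gives UMIs to cells that do not use a gene. The reference was the 44 cells of 10X 2 that carried Ptprc and fell in no group (median 4316.5 UMIs), and 10X 1 had only 1 such cell. Rbp4 was seen in 0 of these 44 cells, a count that permits up to 6.82%, and in 47.0% and 51.4% of subepithelial cells. In Scara5/Penk cells 23.9% and 24.0% had an Rbp4 UMI, in crypt cells 11.8% and 13.5%, in villus cells 5.24% and 9.06% and in the Fibin type 3% and 3.87%. A share within 6.82%, as in the Fibin type and in the villus cells of 10X 1, cannot be told from free RNA by these 44 cells of the other library, although single cells there carried up to 13 (Fibin type, 10X 2) and 14 Rbp4 UMIs (villus, 10X 1). Dio2 was seen in 16.8% and 11.2% of subepithelial cells, in 0 of the 44 immune cells and in at most 1.54% of any other group. The reference cells were shallower than the grouped cells, so shares at an equal depth are given below.

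Hsd11b1 was detected in 83.5% and 84.7% of villus cells, 83.5% and 86.7% of crypt cells, 81.9% and 83.1% of Scara5/Penk cells and 47% and 56.2% of the Fibin type. In subepithelial cells the shares were 6.32% and 27.9%, against 18.2% of the immune reference (exact 95% interval 8.19% to 32.7%). After each cell was thinned to 2000 UMIs, 13.3% of subepithelial cells and 12.8% of the reference cells of 10X 2 kept a UMI. The levels of the 2 were 0.979 and 0.449 UMIs per 10,000, and positive cells carried a mean of 3.35 UMIs (up to 25) against 1.13 (up to 2). By the share of cells Hsd11b1 was therefore close to the reference in the subepithelial cells of 10X 2. The UMIs per positive cell were higher, but they rise with depth. Scaled to depth, positive cells held 3.51 UMIs per 10,000 against 2.47 in the reference, which had only 8 positive cells. Aldh1a3 was detected in 91% and 82.5% of the Fibin type, 75.6% and 82.3% of villus cells, 36.1% and 57.4% of subepithelial cells, 36.5% and 48.6% of crypt cells and 21.5% and 30.0% of Scara5/Penk cells, against 11.4% of the reference (3.79% to 24.6%). At 2000 UMIs the Aldh1a3 shares fell to 71% and 54.8% in the Fibin type, 40.3% and 58.7% in villus cells, 15.6% and 31.9% in subepithelial cells and 4.89% and 12.7% in Scara5/Penk cells, with 2.56% in the reference. In each library the order of the 5 groups by thinned Aldh1a3 share was the order by level. Thinned Rbp4 shares were 25.8% and 29.0% in subepithelial cells and at most 8.89% elsewhere, and thinned Dio2 shares were 4.24% and 3.74% in subepithelial cells. In the reference 0 of 39 thinned cells had an Rbp4 UMI and 0 a Dio2 UMI (exact 95% upper limit 9.03%). Of these shares only those of Rbp4 in subepithelial cells lay above that limit. The other Rbp4 and Dio2 shares cannot be told from free RNA at this depth by these 39 cells of 10X 2.

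**Figure D2:**
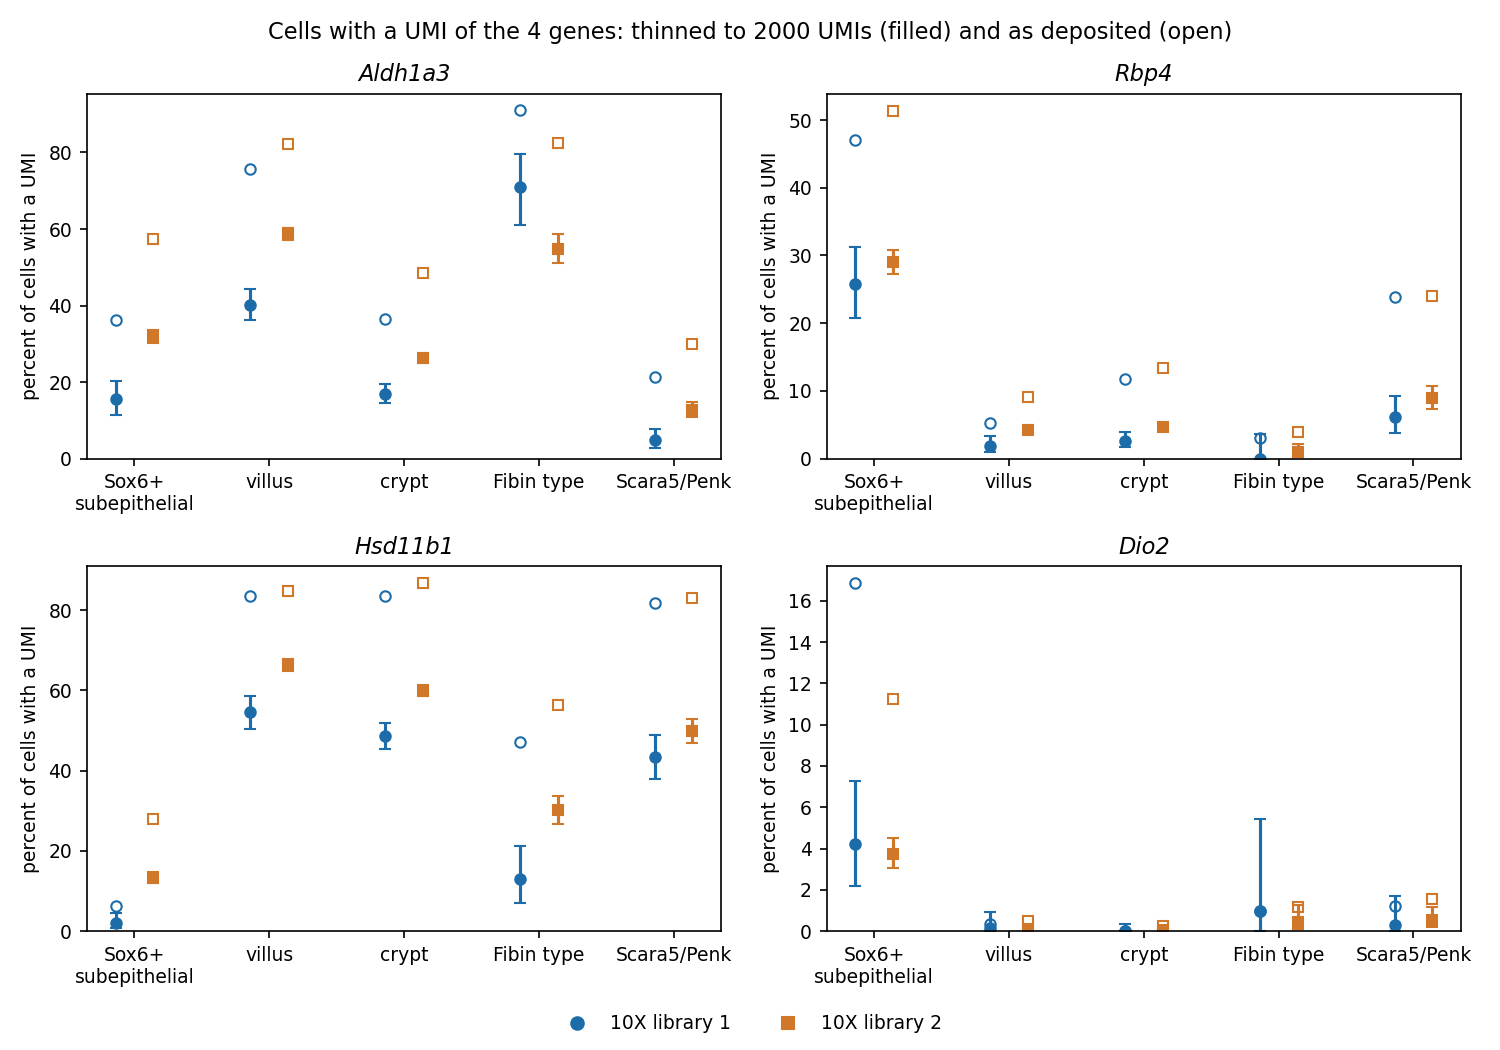
Percent of cells with a UMI of each gene (vertical axis) by group and library, as deposited (open symbols) and after thinning each cell to 2000 UMIs (filled symbols, with exact 95% binomial intervals that cover counting error only). Rbp4 stayed at 25.8% and 29.0% of subepithelial cells after thinning, and Hsd11b1 at 2.12% and 13.3%.

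Positive cells differed in strength. Single subepithelial cells carried up to 48 Rbp4 UMIs in 10X 1 and 80 in 10X 2, and 20% and 16.4% of them carried 5 or more. The 28 and 270 subepithelial cells richest in Rbp4, 1 in 10 of the group, held 60.7% and 55.1% of that group's Rbp4 UMIs. The richest 1 in 10 of villus cells held 31.7% and 31.3% of their Hsd11b1 UMIs, and that of the Fibin type 29.0% and 34.7% of its Aldh1a3 UMIs. Such a share depends on how many UMIs a gene yields per cell, so the genes are not ranked by it. Dio2 positive subepithelial cells carried a mean of 2.104 and 1.56 UMIs.

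Wif1, an inhibitor of Wnt ligands, and Adamts18, a secreted protease of villus tip telocytes, mark different subsets of the subepithelial cells. Wif1 was detected in 114 and 821 subepithelial cells and Adamts18 in 18 and 178, with both in 0 and 4 cells. The Wif1+ cells carried Smoc2 in 97.4% and 90.9% and Chrd in 85.1% and 78.7%, and the Adamts18+ cells carried Ednrb in 100% and 100% and Foxl1 in 61.1% and 65.7%. Of all 285 and 2699 subepithelial cells, 213 and 2101 carried Ednrb, so it is not particular to the Adamts18+ cells, and 84 and 727 carried Foxl1. The Wif1+ cells were deeper (medians of 11976 and 9701 UMIs) than the Wif1- cells (10493 and 7724), which raises the chance of seeing any transcript in them.

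Dio2 followed Wif1. Wif1+ cells held 0.625 and 0.460 Dio2 UMIs per 10,000 against 0.107 and 0.0867 in Wif1- cells, 5.84-fold and 5.31-fold more, and the libraries of the 2 sides did not overlap. A Dio2 UMI was found in 33.3% and 24.5% of Wif1+ cells and in 5.85% and 5.43% of Wif1- cells. After thinning to 2000 UMIs these shares were 7.89% and 7.60% against 1.78% and 2.05%. In Adamts18+ cells Dio2 was found in 0 of 18 cells in 10X 1 (a limit of 16.7% on cells with a captured UMI) and in 2 of 178 cells in 10X 2.

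Rbp4 leaned the other way. Wif1- cells held 4.25 and 3.25 Rbp4 UMIs per 10,000 and Wif1+ cells 1.01 and 1.46, so Wif1- cells were 4.22-fold and 2.22-fold higher. Adamts18+ cells held 4.17 and 3.51, and cells with neither marker 4.26 and 3.22, with no order between these 2 that held in both libraries. By detection, 66.7% and 72.5% of Adamts18+ cells had an Rbp4 UMI, against 31.6% and 41.3% of Wif1+ cells. The lower Rbp4 level of Wif1+ cells was still above that of every other group of fibroblasts, the highest of which was 0.467.

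Aldh1a3 was lower in Wif1+ cells as well, at 0.234 and 0.807 against 1.48 and 3.42 in Wif1- cells, a 6.33-fold and 4.24-fold difference. In Adamts18+ cells it stood at 1.67 and 2.25, 1.79-fold the level of Adamts18- cells in 10X 1 and 0.847-fold in 10X 2, so the libraries gave opposite directions. Hsd11b1 was at 0.0479 and 0.542 in Wif1+ cells and 0.286 and 1.17 in Wif1- cells. An Hsd11b1 UMI was found in 0 of 18 and 17.4% of Adamts18+ cells, in 7.60% and 29.2% of Wif1- cells and in 4.39% and 25.0% of Wif1+ cells.

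**Figure D3:**
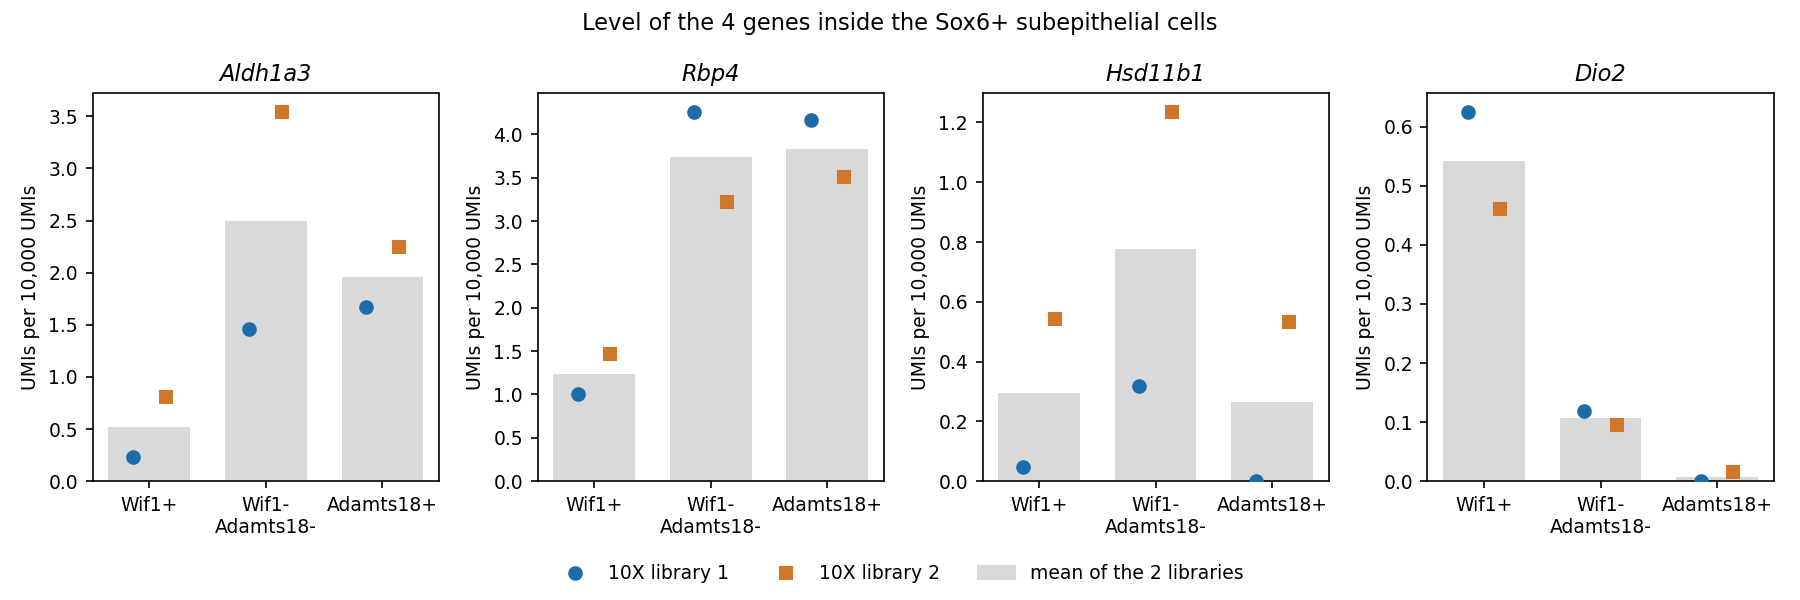
Level of each gene in UMIs per 10,000 UMIs (vertical axis, a linear scale from 0 per panel) in 3 subsets of Sox6+ cells, with circles for 10X 1, squares for 10X 2 and bars for their mean. Dio2 was highest in Wif1+ cells (0.625 and 0.460) and Rbp4 and Aldh1a3 were lowest there.

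Splits of the subepithelial cells by other genes, which give no position in the tissue, also showed differences in Rbp4. Cells positive for Ednrb, an endothelin receptor, held 3.65 and 3.29 Rbp4 UMIs per 10,000 against 0.892 and 0.667 in Ednrb- cells. Cells positive for Foxl1, a telocyte transcription factor, held 4.01 and 4.19 against 2.51 and 2.16. Cells positive for Nrg1, an epithelial growth factor, held 5.68 and 3.83 against 2.32 and 2.43. The Dio2 level was 0.184 and 0.168 in Ednrb+ cells against 0.699 and 0.316 in Ednrb- cells, and 0.0720 and 0.0713 in Nrg1+ cells against 0.371 and 0.232 in Nrg1- cells. For Foxl1 it was 0.167 and 0.148 in positive against 0.376 and 0.220 in negative cells, but the share of cells with a Dio2 UMI was close in 10X 1 (16.7% against 16.9%) and 8.80% against 12.1% in 10X 2. By level, Rbp4 and Dio2 thus leaned to different sides of these splits.

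Pairs of the 4 genes were counted in single cells beside the product of their single shares, which is what unlinked detection would give in that group. In subepithelial cells Aldh1a3 and Rbp4 were seen together in 24.2% (product 16.99%) and 33.0% (product 29.5%). Thinned to 2000 UMIs, the values of all subepithelial cells were 5.30% (product 4.01%) and 10.3% (product 9.25%). Within Wif1- cells alone the pair was seen in 35.7% (product 28.2%) and 40.6% (product 37.8%) as deposited, and in 7.69% (product 7.78%) and 13.9% (product 13.8%) after thinning. Rbp4 and Dio2 were seen together in 3.86% (product 7.92%) and 4.67% (product 5.77%), fewer than the product in both libraries. Aldh1a3 and Hsd11b1 were the most frequent pair of villus cells, at 65.3% (product 63.1%) and 72.2% (product 69.7%), and the thinned values of 20.5% and 39.8% stood beside products of 22.0% and 39.0%. In the Fibin type they were together in 43% and 45.1% of cells and in crypt cells in 32.7% and 44.4%. All 4 genes were found in 0 cells of 10X 1 and 11 cells of 10X 2, and none of them in 12.7% and 9.36% of all cells.

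**Figure D4:**
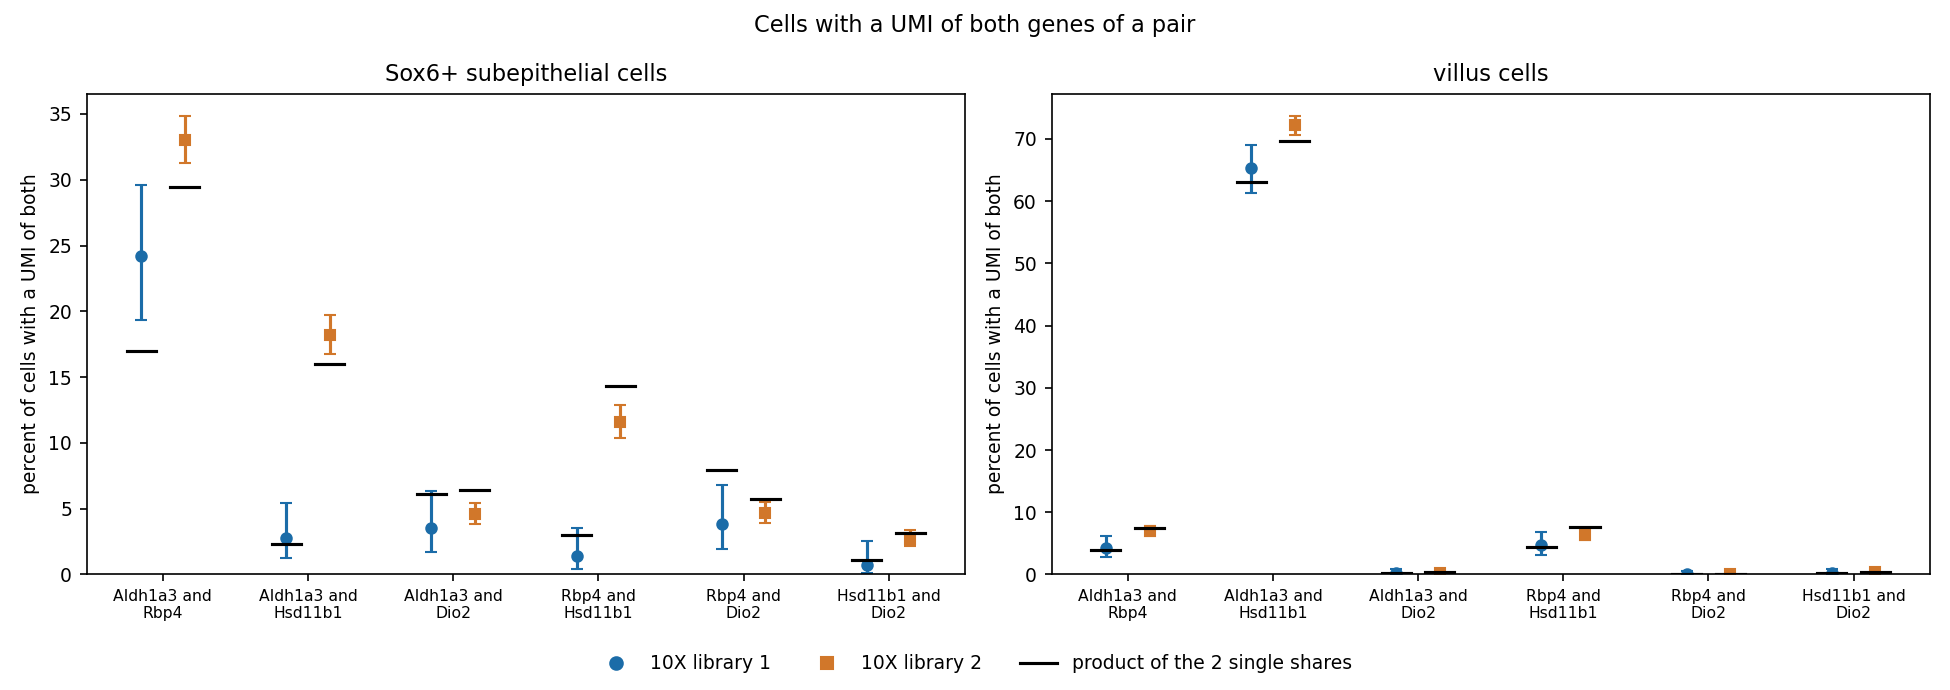
Percent of cells with a UMI of both genes of a pair (vertical axis) in Sox6+ subepithelial cells and in villus cells, with exact 95% binomial intervals (counting error only) and black lines for the product of the single shares. Aldh1a3 with Rbp4 led in subepithelial cells (24.2% and 33.0%) and Aldh1a3 with Hsd11b1 in villus cells (65.3% and 72.2%).

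The subepithelial cells with an Hsd11b1 UMI also carried transcripts of other fibroblasts. After thinning, Fbln1, which marked 98.7% and 98.5% of crypt cells before thinning, was detected in 55.6% of subepithelial cells with Hsd11b1 and 2.64% of those without it in 10X 1, and in 59.4% and 16.9% in 10X 2. C3 showed 55.6% against 5.28% and 56.3% against 19.8%. Of these Hsd11b1+ cells 16.7% and 42.0% had a doublet score in the range set aside in an alternative, against 3.37% and 8.68% of the Hsd11b1- cells. With cells of 2 or more Sox6 UMIs alone, the subepithelial Hsd11b1 level was 0.307 as the mean of the libraries in place of 0.585, and without the cells of highest doublet score it was 0.416. The part of these cells in the Hsd11b1 level was not tested further.

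Aldh1a3 and Rbp4 positive subepithelial cells differed in other ways. Lrat, which esterifies retinol for storage, was detected after thinning in 61.2% and 43.8% of Aldh1a3+ subepithelial cells against 31.1% and 21.7% of Aldh1a3- ones. In 10X 2 the Aldh1a3+ subepithelial cells also had more cells of highest doublet score (22.0% against 12.6%) and more with thinned Fbln1 (32.9% against 23.2%), whereas in 10X 1 these were 2.91% against 4.95% and 5.83% against 6.11%. The Aldh1a3+ crypt cells also had more Lrat (34.6% and 29.9% against 15.2% and 14.9%) and more Rdh10, the retinol dehydrogenase that feeds ALDH1A enzymes (17.3% and 16.9% against 6.25% and 6.51%). Of these crypt cells 3.22% and 15.4% had the highest doublet scores, against 1.54% and 8.04% of the Aldh1a3- ones, and both Lrat and Rdh10 were higher in villus than in crypt cells. The part of such cells in these differences was not tested. Smoc2, a matrix protein of the Wif1+ side, was seen in 31.3% and 26.8% of Rbp4+ subepithelial cells against 62.4% and 38.8% of Rbp4- ones. In Dio2+ subepithelial cells Smoc2 was seen in 83.3% and 55.2% against 40.4% and 29.7%. Among villus cells of 10X 2, the 335 with an Rbp4 UMI carried the telocyte gene Ednrb in 26.2% against 3.23% of the others, and the 32 of 10X 1 in 6.25%, which is 2 cells, against 0.177%. The highest doublet scores were found in 8.06% of these Rbp4+ villus cells against 4.73% of the others in 10X 2, and in 0% against 0.691% in 10X 1. Bmp7 was seen in 14.2% of the Rbp4+ villus cells against 2.99% of the others in 10X 2, but in 0% against 1.42% in 10X 1.

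Over the 5 groups in 2 libraries (10 points, library means removed), the genes with the profile most like each member were found by Pearson's r among genes detected in at least 5% of the cells of a group. These correlations share cells, depth and libraries and are given as a description. Rbp4 was most like Col4a5 (r = 0.993), Fgf9 (0.991) and Cav1 (0.991), which encode a collagen chain, a growth factor and the caveolar coat. Dio2 was most like Tnfsf4 (0.998), Hspa4l (0.998) and Plekha7 (0.998). Hsd11b1 was most like Arap1 (0.984), Ndrg2 (0.955) and Serpina3g (0.955). The best likeness of Aldh1a3 was to P2ry1 (0.948), Usp35 (0.935) and Tbc1d22b (0.925), and P2ry1, a purinergic receptor, stood at 1.02 and 1.02 in the Fibin type, 0.952 and 0.947 in villus cells and 0.489 and 0.531 in subepithelial cells.

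The rest of each pathway was read from lists of known genes, with limma on the mean deposited value per library and group and Benjamini-Hochberg adjustment over all genes tested. Differences in this and the following paragraphs are natural log differences of these means with their standard errors, 2 libraries per group. Most genes differed between subepithelial cells and the other 4 groups, with 69.7% of 1900 genes called (730 higher and 595 lower), so a call there was common. The share was 23.3% between villus and crypt cells, 35.0% between Scara5/Penk cells and the mean of crypt and villus cells, 65.7% between the Fibin type and that mean, 17.3% of 1943 genes for Wif1 and 21.7% of 1958 genes for Adamts18. Of 47 listed retinoid genes other than the members, 20 were in the table and 13 were tested.

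Of these 13 retinoid genes, 6 rose and 5 fell in subepithelial cells, with a list median of 0.03 beside 0.01 for all genes. Among those named, Aldh1a1, Aldh1a2, Rdh10 and Lrat rose, and Ces1d, Adh1 and Dhrs3 fell. Aldh1a1, a second retinaldehyde dehydrogenase, stood at 12.1 and 9.22 UMIs per 10,000 in subepithelial cells and between 1.11 and 2.45 in every other group, a difference of 1.51 ± 0.0594 (SE, limma adjusted p = 7.5e-07). Aldh1a2, the third of these enzymes, stood at 2.02 and 2.54 in subepithelial cells, 1.28 and 1.52 in villus cells and 0.507 and 0.695 in crypt cells, and rose by 0.60 (limma adjusted p = 1.1e-06). Rdh10 rose by 0.57 (limma adjusted p = 8.3e-06) and Lrat by 0.48 (limma adjusted p = 5.6e-04). Ces1d, a carboxylesterase, fell by 0.97 (limma adjusted p = 5.1e-04), and Adh1, an alcohol dehydrogenase that can oxidise retinol, and Dhrs3 also fell, by 0.48 and 0.18.

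Between villus and crypt cells, 3 retinoid genes rose and 3 fell, beside medians of 0.0024 for the list and for all genes alike. Lrat rose by 0.75 ± 0.0883 (SE, limma adjusted p = 1.5e-03), with 5.72 and 4.80 UMIs per 10,000 in villus cells against 1.92 and 1.79 in crypt cells. Rdh10 rose by 0.46 (limma adjusted p = 1.1e-03) and Aldh1a2 by 0.34 (limma adjusted p = 1.0e-03), in the direction in which Aldh1a3 was 3.06-fold and 2.81-fold higher. Adh1 fell by 0.29 (lost on pooled UMIs with an adjusted p of 0.0509) and Dhrs3, which turns retinaldehyde back into retinol, by 0.26. The groups with most Aldh1a3 differed in their other retinoid genes, since the Fibin type held Ces1d at 24.0 and 17.3 UMIs per 10,000 (a difference of 1.63 from crypt and villus cells, limma adjusted p = 5.2e-05) and Lrat at only 0.0510 and 0.295 (a difference of -0.91, limma adjusted p = 3.0e-05). In that comparison 4 retinoid genes rose and 4 fell. In Scara5/Penk cells 4 rose and 3 fell, among them Dhrs3 (higher by 0.39), Lrat (a difference of -0.64) and Rdh10 (a difference of -0.36).

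Within the subepithelial cells 1 retinoid gene rose and 2 fell on the Wif1+ side. Aldh1a1 was higher by 0.43 (limma adjusted p = 4.3e-03) and Lrat lower, with a difference of -0.53 (limma adjusted p = 7.1e-03), while Aldh1a2 passed narrowly with -0.13 (limma adjusted p = 0.0484). These 3 calls among 13 genes are near the background of 17.3% over all genes. The Aldh1a1 and Aldh1a2 calls were lost without the library block, when the groups were assigned at an equal 5000 UMIs and, like that of Lrat, when the UMIs were pooled. That of Aldh1a2 was also lost without the filter on low values, and it changed direction when cells with markers of other cell types were left out. In Adamts18+ cells Aldh1a2 was the retinoid gene with the largest difference, at 3.61 and 6.20 UMIs per 10,000 against 1.91 and 2.28 in the Adamts18- cells (0.65 ± 0.0862, SE, limma adjusted p = 8.3e-04). The Adamts18 comparison rests on 18 cells in 10X 1.

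**Figure D5:**
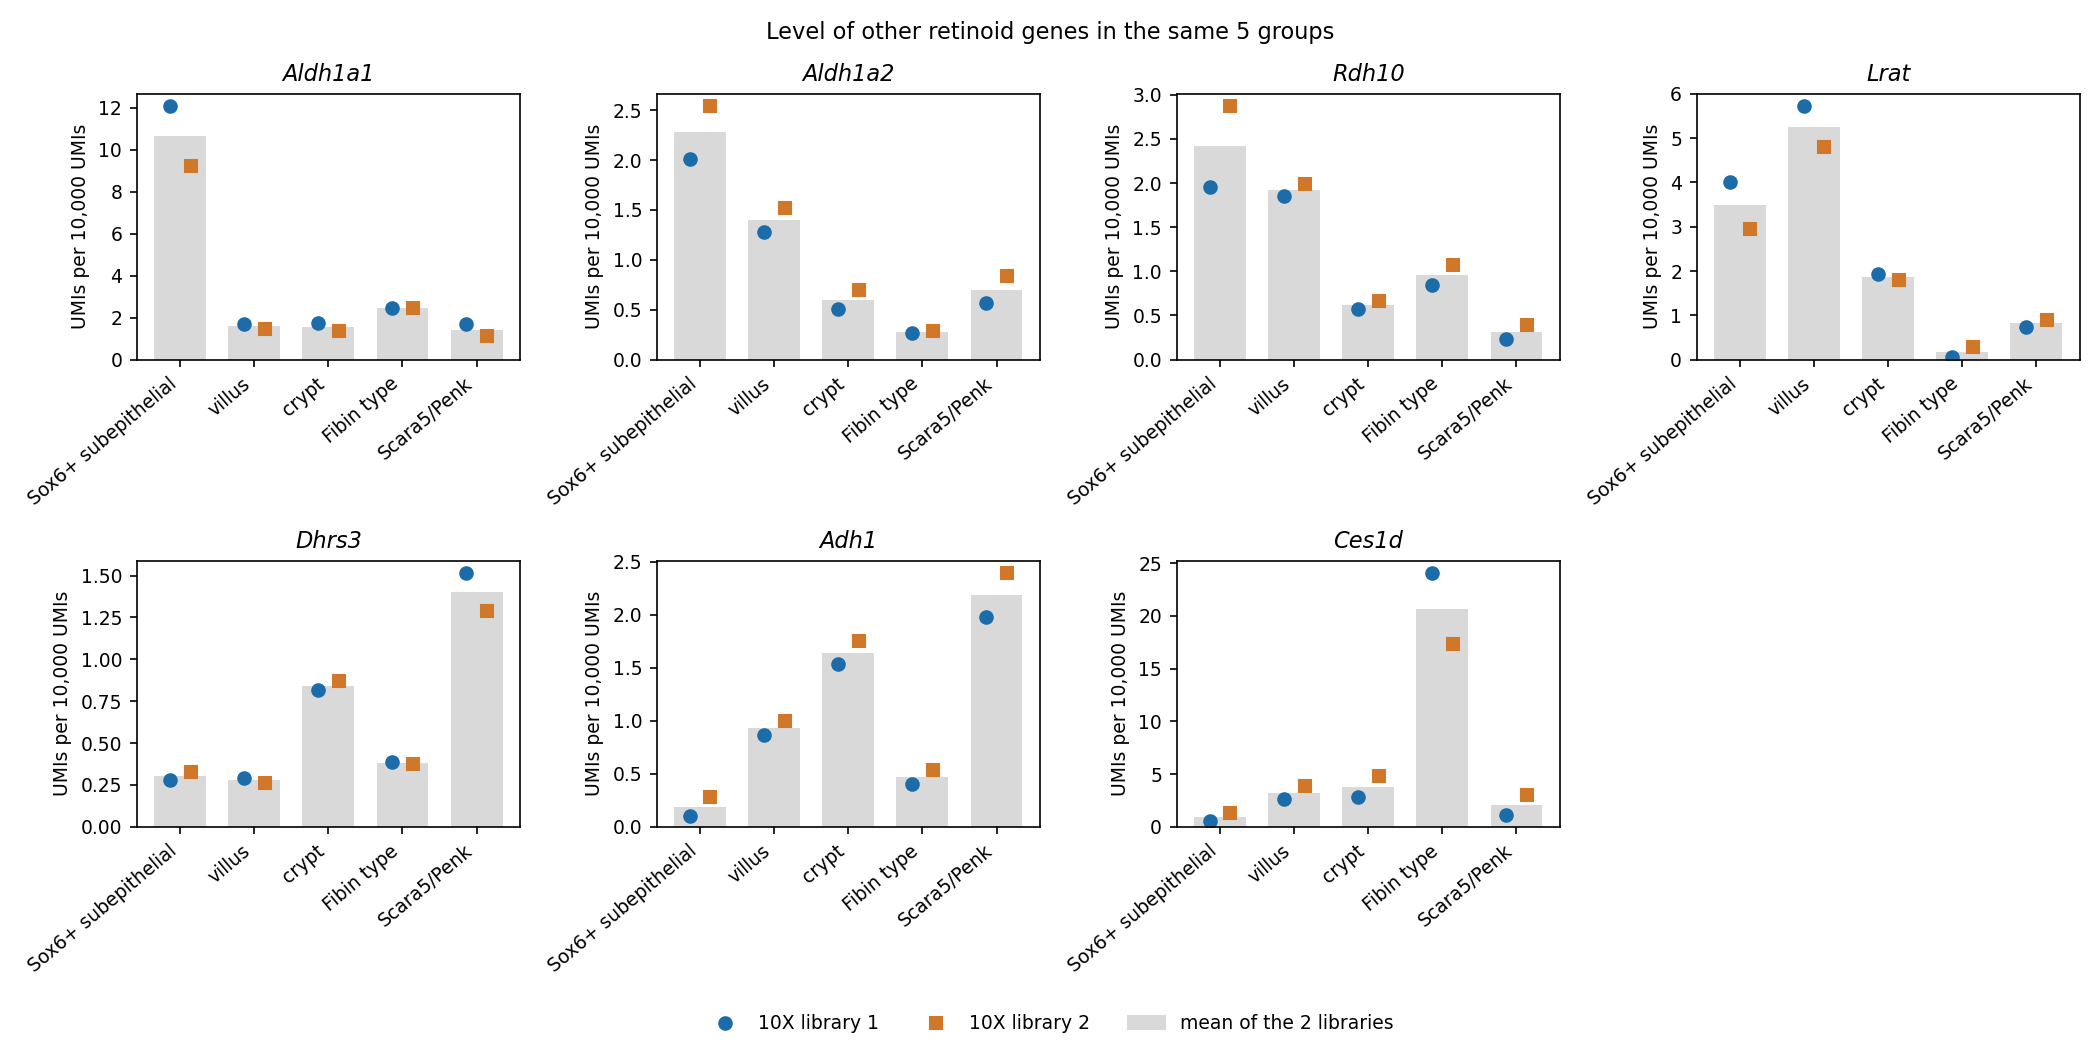
Level of other retinoid genes in UMIs per 10,000 UMIs (vertical axis, a linear scale from 0 per panel) in the 5 groups, with circles for 10X 1, squares for 10X 2 and bars for their mean. Aldh1a1 stood at 12.1 and 9.22 in subepithelial cells, where Adh1 was at 0.101 and 0.282.

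Of 33 listed glucocorticoid genes other than Hsd11b1, 16 were in the table and 12 were tested, most of them target genes that are also known as stress response or immediate-early genes. By limma, 9 fell and 0 rose in subepithelial cells (0 rose also at an unadjusted p of 0.05 and on pooled UMIs), where Hsd11b1 was lowest, with a list median of -0.21 beside 0.01 for all genes. Nfkbia, an inhibitor of NF-kB, fell by 0.63 against the mean of the other 4 groups (limma adjusted p = 4.4e-05). Its level was 1.55 and 1.91 UMIs per 10,000 in subepithelial cells, close to the 1.78 and 2.06 of the Fibin type, and 6.41 and 6.32 in crypt cells. Mt1, a metallothionein, fell by 0.85 (limma adjusted p = 9.1e-04). Cdkn1c, a cell cycle inhibitor, fell by 0.28 (limma adjusted p = 2.9e-04). Dusp1, a phosphatase that ends MAP kinase signals, differed by -0.23 and did not pass (limma adjusted p = 0.0929).

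The same list was counted in the other groups, and its relation to the Hsd11b1 level was not tested. In villus cells 7 of the 12 fell relative to crypt cells (9 at an unadjusted p of 0.05 and 6 on pooled UMIs) and 0 rose by any of these counts (list median -0.19, beside 0.0024 for all genes), and villus cells held 1.21-fold and 1.24-fold the Hsd11b1 of crypt cells. In Scara5/Penk cells 9 rose relative to crypt and villus cells (10 unadjusted and 6 on pooled UMIs) and 0 fell by any of these counts (median 0.33, beside 0.00021), among them Mt1 at 26.4 and 17.2 UMIs per 10,000 against 17.5 and 9.61 in crypt cells (a difference of 1.045 from the mean of crypt and villus cells, limma adjusted p = 1.3e-03) and Dusp1 at 13.6 and 10.5 (0.71, limma adjusted p = 2.9e-03). In the Fibin type 9 fell (10 unadjusted and 9 on pooled UMIs) and 0 rose by any of them (median -0.25, beside -0.0015). For Wif1 0 genes of the list passed in limma, unadjusted or on pooled UMIs, and for Adamts18 1 fell (1 unadjusted and 2 on pooled UMIs) and 0 rose by any of these counts. That gene was Dusp1, with 1.78 and 2.53 against 5.52 and 5.15 (-0.51, limma adjusted p = 0.0246), a call lost without the filter on low values. Of these 12 genes, Fkbp5, an established target of the receptor, stood at 0.458 and 0.346 in crypt cells and at 0.0654 and 0.0743 in subepithelial cells. It stood at 0.495 and 0.376 in Scara5/Penk cells, 0.392 and 0.266 in villus cells and 0.0842 and 0.127 in the Fibin type.

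Of 28 listed thyroid hormone genes other than Dio2, 5 were in the table and 4 were tested, so this list says little of the pathway. In subepithelial cells, where Dio2 was highest, Slc3a2, the heavy chain of an amino acid and thyroid hormone transporter, rose by 0.11 ± 0.0187 (SE, limma adjusted p = 1.3e-03), a call lost without cells with markers of other cell types. Wsb1, part of the ubiquitin ligase that marks DIO2 for degradation, fell by 0.23 (limma adjusted p = 6.7e-04), and stood at 1.07 and 1.46 UMIs per 10,000 there against 2.21 and 2.67 in crypt cells. Slco1a4, an organic anion transporter, fell by 0.03 (limma adjusted p = 2.0e-03). Wsb1 also fell in villus cells against crypt cells by 0.23 (limma adjusted p = 8.7e-03, lost on pooled UMIs with an adjusted p of 0.0657), and in Adamts18+ cells by 0.18 (limma adjusted p = 0.0237). Both of these calls were also lost without the library block and without cells with markers of other cell types. On the Wif1+ side, where Dio2 was highest, it differed by 0.05 and did not pass (limma adjusted p = 0.582). In Scara5/Penk cells 3 of the 4 rose (2 on pooled UMIs), and for Wif1 0 passed in limma or on pooled UMIs, with 1 higher at an unadjusted p of 0.05.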

How the data were processed

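Per the labels and the study's methods, the authors aligned droplet reads to mm10 (GRCm38) with Cell Ranger 3.1.0, counted Smartseq2 reads with featureCounts (Subread 1.4.6-p5) and combined both kinds in Seurat. The deposited droplet values are natural logs, ln(1 + 10,000 × UMIs / total UMIs of the cell): every value above 0 (100%, tolerance 0.01) came back as whole UMIs, which gave the UMIs and totals used here. The deposited natural log values of the plates were changed by the authors' integration (25.1% and 26.1% lie below 0) and entered no comparison. One gene row that was cut short was left out.

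Cells ranged from 559 to 26890 UMIs in 10X 1 and from 465 to 22450 in 10X 2. The table holds no mitochondrial gene, so RNA quality was not read. The 4 genes, the groups, the markers and the pathway lists were chosen with earlier results of these data known. Cells are not replicates: each library gave 1 mean per group (at least 10 cells), and limma 3.58.1 (R 4.3.3, mean trend, library as a block) was fitted over all genes above 0 in at least 5% of the cells of a group, in 6 comparisons, with an adjusted p of 0.05. The library pairs the groups because they are cells of the same library. Named pathway genes passed in 1 comparison or more with 1 sign in both libraries, at most 8 per list by size of difference; 1 of these is not reported here, though it stays in the counts. Lpl, which marks the villus group, was left out of the counts. Shares carry exact Clopper-Pearson 95% intervals, which cover counting error only, and a share of 0 allows 3 counts. On simulated data with 200 changed genes the fit of subepithelial cells against the others (1900 genes) recovered 95.5% at a change of 0.3 and 100% at 1, and 6.83% and 4.76% of its calls were false. The simulated noise was independent and normal, and the data gave 1325 calls in this comparison, so these rates may not hold for the data. Doublet scores came from Scrublet (Scanpy 1.11.5), whose automatic cutoff called 3 and 518 cells, and the main values keep all cells. Alternatives left out the 52 and 1646 cells of highest score, cells meeting several conditions, cells with 1 Sox6 UMI, or cells with markers of other cell types (Ptprc, Epcam, Pecam1, Myh11 and Kit among them), assigned groups at 5000 UMIs, pooled UMIs as log2(UMIs per 10,000 + 0.1), or dropped the filter, block, trend or a library.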

Additional observations from a re-analysis of the deposited data

Results flagged for a closer look

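Cells that met no group's condition (199 in 10X 1 and 1305 in 10X 2, medians of 4600 and 4368 UMIs) entered no comparison, and UMIs of the 4 genes were found there. Aldh1a3 had a UMI in 56.8% and 60.4% of these cells, at 2.16 and 3.58 UMIs per 10,000. Hsd11b1 had one in 63.8% and 68.0%, at 3.45 and 4.996. Rbp4 had one in 8.04% and 6.67%, and Dio2 in 1.005% (2 cells) and 0.536% (7 cells). The 44 immune reference cells of 10X 2 held no UMI of Rbp4 or Dio2, which allows a share of up to 6.82%, so the 10X 2 shares of both genes cannot be told from free RNA. The ungrouped cells are shallower than the grouped ones, and the groups they would join at greater depth were not tested.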

How the results depend on the processing

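Over 9 ways of choosing cells or libraries, Rbp4 and Dio2 kept their highest group (subepithelial) and Hsd11b1 its lowest (subepithelial), while Aldh1a3 was highest in the Fibin type in 8 of them and in villus cells without 10X replicate 1. The difference of Rbp4 between subepithelial cells and the rest was 0.707 without the cells of highest doublet score, 0.679 with cells of 1 condition, 0.710 with 2 or more Sox6 UMIs, 0.382 without cells with other markers, 0.699 when Myh11 was allowed (chosen after seeing the data, since most subepithelial cells carry it), 0.619 with groups at 5000 UMIs and 3.33 on pooled log2 UMIs, with 0.667 to 0.676 in single libraries. That of Hsd11b1 was -1.06, -1.10 (2 or more Sox6 UMIs), -0.738 (no cells with other markers), -1.05 (5000 UMIs) and -2.76 (pooled log2), with -1.03 to -1.005 in single libraries. That of Dio2 for Wif1 was 0.355 without cells with other markers, 0.171 at 5000 UMIs and 1.86 on pooled log2 UMIs, with 0.189 to 0.240 in single libraries. That of Aldh1a3 between villus and crypt was 1.49 on pooled log2 UMIs and 0.703 to 0.841 in single libraries. The pooled values are on another scale. Of 24 member differences 2 changed direction, Aldh1a3 for Adamts18 to -0.22 without cells with other markers (0.18 with them, and that setting leaves 1 Adamts18+ cell in 10X 1) and Rbp4 between villus and crypt to 0.0041 at 5000 UMIs.

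Without the replicate block the 6 comparisons called 1231, 352, 578, 1178, 261 and 353 genes, in the order given in the report. For Wif1 the count fell from 336 to 193 with groups at 5000 UMIs, where fewer cells and 1722 genes remained. On pooled UMIs the higher and lower calls moved from 178 and 265 to 225 and 221 for villus against crypt, from 414 and 251 to 343 and 326 for Scara5/Penk cells and from 207 and 129 to 97 and 156 for Wif1. Of 83 pathway calls, Lpl left out, 68 stayed past the threshold on pooled UMIs, 73 without the block and 64 without the filter. Aldh1a2 for Wif1 and Rai14 for Adamts18 changed direction in 1 setting each; the causes were not tested. With 2 libraries, and 18 Adamts18+ cells in 10X 1, differences between libraries and small subsets limit every value, and a single cell without a Dio2 UMI cannot be called negative at this depth.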

Other observations

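On the Smartseq2 plates (360 and 379 cells), whose values were corrected for integration and carry no groups here, the mean deposited natural log value of Hsd11b1 was 0.963 and 1.34, that of Aldh1a3 0.692 and 0.842, that of Rbp4 0.155 and 0.264 and that of Dio2 0.0247 and 0.0300. Of the Dio2 values, 27.8% and 63.9% lay below 0, and the size of the correction was not measured.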
